A study of Mus musculus with 28 samples.

Results

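The 35 genes described here encode subunits of voltage-gated ion channels: 7 sodium, 14 potassium and 13 calcium channel subunits and 1 HCN channel subunit, the pacemaker gene Hcn2. They were chosen by name, not by a threshold on their values. The embryonic table listed 33 of them among 13846 genes, without Scn4b and Hcn2, and 27 passed the filter on low values, among 12429 tested genes. The adult table listed all 35 among 14104 genes, and 34 were tested among 12870, Hcn2 being too low. RNA sequencing was done on 28 mouse samples of a Myt1l knockout line, where Myt1l is a neuronal transcription factor with zinc fingers. Embryonic cortex of day E14.5 was taken from 6 wild-type (WT), 6 heterozygous (Het) and 4 homozygous (Hom) embryos. The adult prefrontal cortex (PFC) was taken from 6 WT and 6 Het animals. Genotype and sex were the labelled variables, no agent was given to any group, and the labels used here do not name the strain, the exact adult age or any pooling. Each sample carries its own identifier, and libraries are named below by sex letter and title number, such as F04. Groups of samples share an identifier prefix, and the labels used here do not say what it stands for.

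Voltage-gated channels open when the membrane potential changes. Sodium channel pore subunits start and carry the action potential, and potassium channels end it and set the firing rate. Calcium channels couple depolarisation to transmitter release, to gene expression and, as low-threshold T-type channels, to rhythmic firing. Auxiliary beta and alpha2delta subunits bring the pores to the membrane and tune their gating. In cortex, many of these genes are known to come on as neurons mature.

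Promoters are shown for the gene with the highest adult level per kilobase among the pore subunits of each of the 3 large classes, which are Scn2a (Nav1.2, the sodium channel of excitatory neurons), Kcnd2 (Kv4.2, the A-type potassium channel of dendrites) and Cacna1b (Cav2.2, the N-type channel of nerve terminals). Each run is the 250 bases before a RefSeq transcript start on GRCm38.p6, on the gene's strand, 5′ to 3′, and holds no annotated exon. Capitals mark AAGTT on either strand (AACTT when read in the gene's direction), the core bound by zinc fingers of the MYT1 family.
Scn2a, chr2:65620519-65620768, plus strand: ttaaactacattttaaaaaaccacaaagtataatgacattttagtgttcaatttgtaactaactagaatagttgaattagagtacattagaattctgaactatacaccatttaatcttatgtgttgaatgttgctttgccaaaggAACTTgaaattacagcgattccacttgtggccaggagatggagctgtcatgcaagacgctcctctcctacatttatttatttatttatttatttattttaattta
Kcnd2, chr6:21215096-21215345, plus strand: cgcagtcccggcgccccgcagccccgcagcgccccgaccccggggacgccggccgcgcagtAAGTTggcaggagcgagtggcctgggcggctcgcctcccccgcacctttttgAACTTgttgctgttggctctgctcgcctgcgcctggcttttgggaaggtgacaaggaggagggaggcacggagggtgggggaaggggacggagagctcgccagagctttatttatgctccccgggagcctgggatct
Cacna1b, chr2:24763153-24763402, minus strand: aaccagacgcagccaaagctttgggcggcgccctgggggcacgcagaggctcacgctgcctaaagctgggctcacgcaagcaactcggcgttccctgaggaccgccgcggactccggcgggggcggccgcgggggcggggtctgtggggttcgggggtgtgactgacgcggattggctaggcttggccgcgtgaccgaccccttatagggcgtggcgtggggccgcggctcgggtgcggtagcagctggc
The GC content was 29.6% in this Scn2a window, 68.8% in Kcnd2 and 72.0% in Cacna1b. Another Scn2a window, chr2:65668436-65668685, is not printed here. It had a GC content of 53.2% and also held the core. The median was 52.4% over all 32851 windows of the table. The table held 43 windows for 26 of the 35 members. Of these windows, 10 (23.3%) held the core, against 35.3% of all windows, and 9 of the 26 members had at least 1 such window. A match is a description of the letters, not a bound site.

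In the library checks, Myt1l was lower in the Hom libraries (18.1 to 23.3 CPM, counts scaled to a fixed library total) than in every WT library (45.9 to 66.6 CPM), and its Hom change was -1.43 (log2, limma, adjusted p = 0.000112). In adult Het libraries it was 105 to 121 CPM against 146 to 168 CPM in WT, a change of -0.47 (limma, adjusted p = 0.000139). In E14.5 Het libraries the ranges overlapped (30.6 to 59.5 CPM), with a change of -0.39 (limma, adjusted p = 0.125). The totals recovered from the scaled values were 27827467 to 30811856 counts per E14.5 library and 19601294 to 21275162 per adult library. Against their labels, E14.5 Het F10 had 21.6 CPM of the Y-linked gene Ddx3y and E14.5 Het M11 had 0, so results on E14.5 Het libraries were also computed without both. The choroid plexus gene Ttr was 1361 to 5081 CPM in the E14.5 libraries and 0 to 1.02 CPM in the adult ones. The excitatory neuron gene Slc17a7 was 227 to 300 CPM in the PFC.

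The sodium channel genes were led by different subunits at the 2 ages (levels are CPM per kilobase of exons, WT mean ± SD, n = 6). In E14.5 cortex the highest sodium subunit was Scn3b, an auxiliary beta subunit, at 4.85 ± 0.843, followed by the beta subunit Scn2b at 2.92 ± 0.354. Of the pores, Scn2a was at 0.953 ± 0.0959, Scn3a (Nav1.3, the channel of immature neurons) at 0.669 ± 0.0698, Scn8a (Nav1.6, of mature initial segments and nodes) at 0.347 ± 0.0457 and Scn1a (Nav1.1, prominent in interneurons) at 0.0877 ± 0.0323. In adult PFC Scn2b was at 140 ± 8.03, a higher level than 96.7% of all listed genes. Scn2a was at 13.0 ± 0.820, Scn3b at 11.3 ± 1.24, Scn1a at 7.82 ± 0.539, Scn8a at 3.24 ± 0.407, Scn4b (the beta subunit of resurgent current) at 3.01 ± 0.625 and Scn3a at 1.78 ± 0.157.

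Shares within a subunit family do not depend on the total each library was scaled to. Of the summed level per kilobase of the 4 sodium pores, Scn2a held 46.3% ± 3.03 in E14.5 WT and 50.3% ± 1.03 in adult WT (SD, n = 6). Scn3a held 32.5% ± 2.25 and then 6.90% ± 0.661, while Scn1a held 4.26% ± 1.49 and then 30.3% ± 1.19. Neither of the latter pairs of ranges overlapped. The place of Scn3a as second pore of the E14.5 cortex was thus held by Scn1a in the adult PFC. Between Scn2b and Scn3b, Scn2b held 37.8% ± 4.06 in the embryo and 92.6% ± 0.633 in the adult.

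The potassium channel genes were low in the embryo. Kcnab2, a cytoplasmic beta subunit of Kv1 channels, was the highest of them at 0.855 ± 0.135 CPM per kilobase in E14.5 WT. The A-type pores Kcnd2 and Kcnd3 (Kv4.3) were at 0.417 ± 0.142 and 0.391 ± 0.0590, and Kcnq3, a subunit of the M-current, was at 0.380 ± 0.104. The lowest was Kcnc2 (Kv3.2, of fast-spiking interneurons) at 0.0318 ± 0.0271, and 6 potassium genes (Kcna2, Kcna4, Kcnc2, Kcnh1, Kcnh3 and Kcnq5) did not pass the filter. Kcna4 (Kv1.4) was listed at 0 in Het M11, which allows up to 0.101 CPM at 3 counts, counting error only. In adult PFC Kcnab2 was at 44.3 ± 4.48, Kcnd2 at 9.96 ± 0.563, Kcna1 (Kv1.1, of axons) at 8.43 ± 1.10 and Kcnab1 at 6.33 ± 0.870. Kcnd2 and Kcnd3 were near even in the embryo, where Kcnd2 held 50.5% ± 7.37 of their sum, and uneven in the adult, where it held 90.1% ± 2.07. Kcnab2 held 85.2% ± 3.89 of the Kv beta sum in the embryo and 87.5% ± 1.74 in the adult.

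Among the calcium channel genes, the highest genes at both ages were auxiliary subunits. Cacnb3, a beta subunit, was at 4.25 ± 0.393 CPM per kilobase in E14.5 WT, and Cacna2d1, the alpha2delta subunit that gabapentin binds, at 1.07 ± 0.177. The highest pore was Cacna1b at 0.429 ± 0.0764, ahead of Cacna1a (Cav2.1, the P/Q-type channel of nerve terminals) at 0.304 ± 0.0333 and the T-type pore Cacna1h at 0.274 ± 0.122. In adult PFC Cacnb3 was at 26.4 ± 1.33, Cacnb4 at 16.6 ± 1.31, Cacnb1 at 10.4 ± 0.715 and Cacna2d1 at 9.03 ± 0.764. The adult pores stayed lower than these. The highest were Cacna1b at 2.01 ± 0.271 and Cacna1e (Cav2.3, R-type) at 0.756 ± 0.132, and the lowest was the L-type pore Cacna1c at 0.275 ± 0.0536. Of the 3 beta subunits, Cacnb3 held 83.6% ± 3.18 of the sum in E14.5 WT and 49.5% ± 1.83 in adult WT. Cacnb4 held 7.38% ± 1.23 and then 31.0% ± 1.59, and Cacnb1 8.98% ± 3.26 and then 19.5% ± 1.67.

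**Figure D1:**
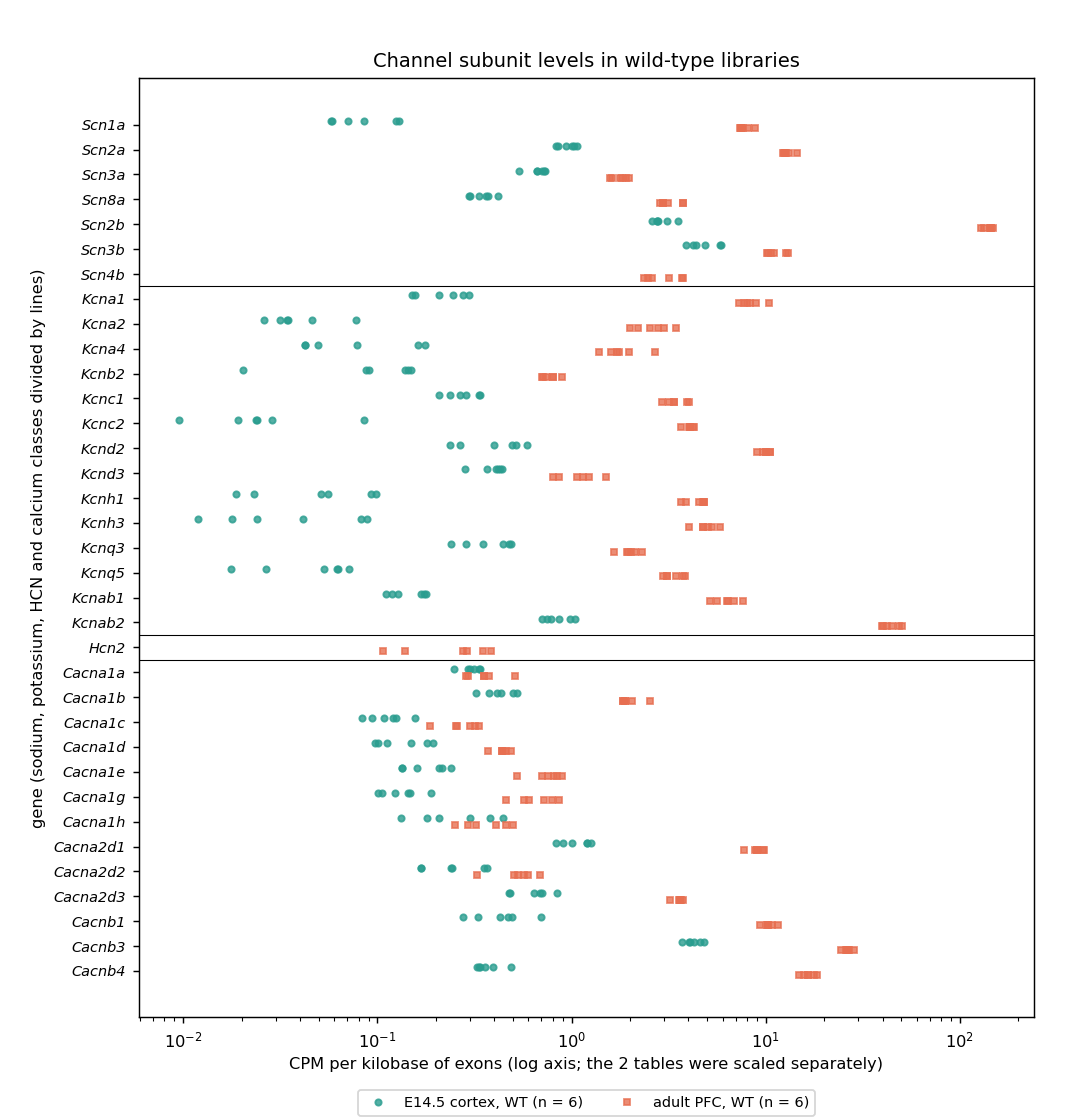
Level of each channel subunit in every WT library (points; horizontal log axis, CPM per kilobase of exons; circles E14.5 cortex, squares adult PFC, 6 libraries each). Potassium genes at the low end, such as Kcnc2 and Kcnh3, lie farthest apart between the ages, and Cacna1a, Cacna1h and Cacna2d2 overlap.

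All 33 members listed in both tables had a higher mean CPM in adult than in E14.5 WT libraries. The tables were scaled separately and differ in age and region, so these ratios are given without a test. The median ratio was 40.6 for the 14 potassium genes, 11.5 for 6 sodium genes and 4.68 for the 13 calcium genes. Over the 33 members it was 9.33, beside 1.22 over the 13071 genes listed in both tables. In 30 of the 33, every adult WT library was above every E14.5 WT library. The exceptions were Cacna1a (mean ratio 1.19), Cacna1h (1.36) and Cacna2d2 (2.09). The highest ratios were those of Kcnc2 (128), Kcnh3 (Kv12.2, 112) and Scn1a (89.1), and the lowest outside the calcium class were Scn3b (2.33), Scn3a (2.66) and Kcnd3 (2.82). In bulk tissue, fewer cells of a type and less RNA per cell cannot be told apart.

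**Figure D2:**
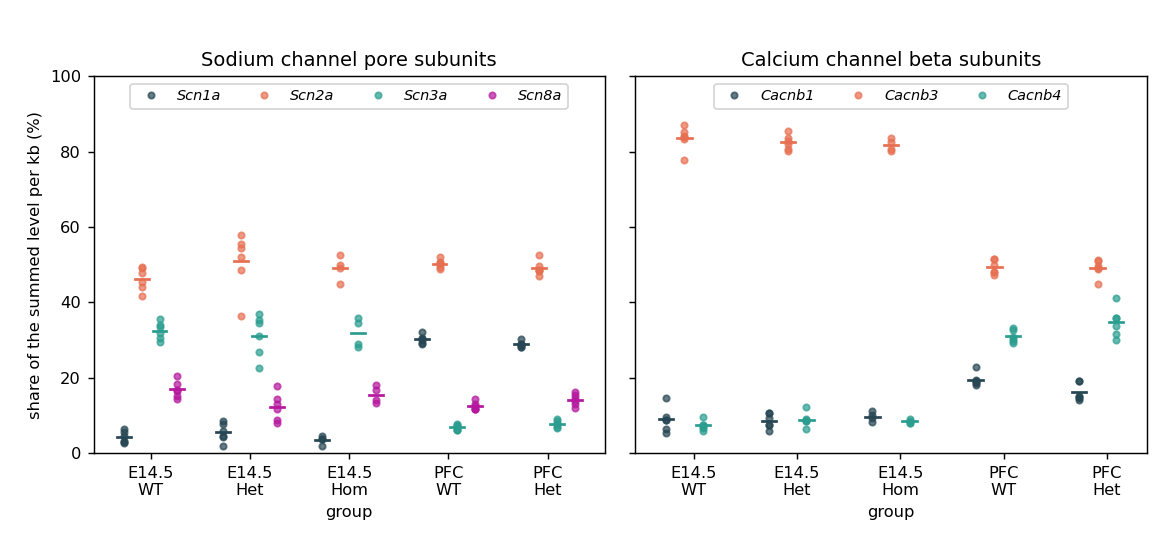
Share of each gene in the summed level per kilobase of its family (vertical axis, percent; points are libraries, lines are group means) for the 4 sodium pores and the 3 calcium beta subunits, over the 5 groups. Within an age the genotypes overlap, while Scn3a and Scn1a exchange places and Cacnb3 goes from 83.6% to 49.5% between E14.5 and adult WT.

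In adult PFC, 0 of the 34 tested members changed between Het and WT (limma on log2(CPM + 0.5), Benjamini-Hochberg adjusted p under 0.05 over all tested genes), where 0.404% of all tested genes were called. At an unadjusted p under 0.05 there were 5 members, 4 higher (6.83% of all genes) and 1 lower (6.76%), 13.6% in all standing there, and limma voom on the recovered counts also gave 5 at that level and called 0. No member had groups that did not overlap (0.668% of all genes had). The 95% interval of the change lay within 1.5-fold either way for 32 of the 34 members, against 85.6% of all genes, and within 2-fold for all 34. Of the members, 24 of 34 had a change above 0 (53.8% of all genes), and the median was 0.09 against 0.01 over all genes. By class the median was 0.07 for sodium, 6 of 7 above 0 and 3 of 7 at an unadjusted p under 0.05. It was 0.11 for potassium, 12 of 14 above 0, and -0.01 for calcium, 6 of 13 above 0.

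The calcium channel beta subunit Cacnb1 (chromosome 11, 98001508 to 98023034, mm10, minus strand) had the lowest p. Its adult CPM was 42.5 at the lowest, 46.6 at the median and 52.2 at the highest of the WT libraries, and 33.0, 36.0 and 46.7 in Het. Het M05 and M08 lay among the WT values and the other 4 Het libraries lay below all of them. The change was -0.30 (SE 0.08, 95% interval -0.46 to -0.13, limma adjusted p = 0.0851). It passed the threshold without Het M05 (-0.35, limma adjusted p = 0.0355), where 0.956% of all genes were called. Its share of the 3 beta subunits was 16.2% ± 2.36 in Het and 19.5% ± 1.67 in WT (SD, n = 6).

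Among sodium genes, Scn2b (chromosome 9, 45117782 to 45130070, plus strand), which links to the pore through the extracellular side, was at 597, 669 and 693 CPM (lowest, median, highest) in adult WT and at 650, 747 and 887 CPM in Het. The 5 Het libraries other than M08 lay above the highest WT library. Its change was 0.20 (SE 0.06, limma adjusted p = 0.121). Scn8a (chromosome 15, 100869858 to 101045938, plus strand) was at 45.3, 48.2 and 59.3 CPM in WT and 45.5, 65.9 and 77.2 in Het, where M08 and M09 stayed in the WT range. The change was 0.28 (SE 0.10, limma adjusted p = 0.227). Scn3a was at 19.7, 22.3 and 24.5 CPM in WT and 19.8, 27.1 and 33.8 in Het, a change of 0.26 (SE 0.10, limma adjusted p = 0.233). Scn2a, by contrast, had a change of 0.07 with an interval of -0.05 to 0.18, and Scn1a of 0.03 with an interval of -0.10 to 0.17.

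Kcna2 (Kv1.2, of axons; chromosome 3, 107101146 to 107115005, plus strand) was the potassium gene with the lowest p. It stood at 23.7, 31.7 and 41.1 CPM in adult WT and at 28.4, 41.4 and 47.5 CPM in Het. The Het median thus lay above the highest WT library, while the lowest Het library lay within the WT range. The change was 0.30 (SE 0.11, limma adjusted p = 0.208). Kcna1 had a change of 0.17 (SE 0.09, limma adjusted p = 0.399). The EAG channel Kcnh1 had a change of 0.16 (limma adjusted p = 0.453) and the M-type channel Kcnq5 of 0.12 (limma adjusted p = 0.558). Of the other calcium genes, Cacna1c was at 3.97, 5.88 and 7.09 CPM in WT and 5.28, 7.13 and 8.96 in Het, a change of 0.30 with an interval from -0.00 to 0.60 (limma adjusted p = 0.375). Cacnb4 had a change of 0.13 (limma adjusted p = 0.409) and Cacna1h of 0.36, with the wide interval of -0.05 to 0.77 that goes with its 2.45 to 7.00 CPM. Hcn2, untested, was at 0.341 to 1.22 CPM in WT and 0.244 to 1.22 CPM in Het.

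**Figure D3:**
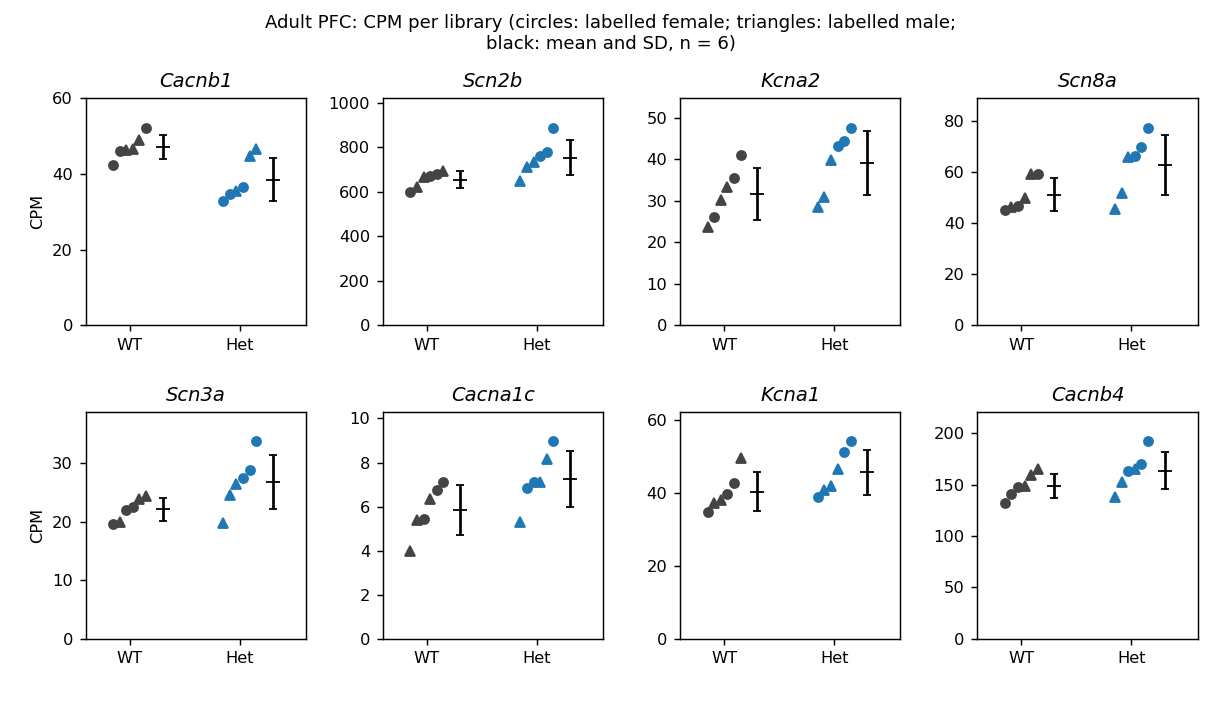
CPM of 8 members in each adult PFC library (vertical axes start at 0; circles labelled female, triangles labelled male; black marks are mean and SD, n = 6). Cacnb1 is lower in 4 of 6 Het libraries, and the labelled-female Het libraries lie at the top for Scn2b, Scn8a and Scn3a.

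The adult Het libraries did not deviate alike. The median of the 34 members against the WT mean (log2) was 0.14 in Het F02, 0.12 in F04, 0.19 in F07 and 0.15 in M05, but -0.03 in M08 and -0.05 in M09. Among WT libraries it was 0.15 in F04 and between -0.07 and 0.03 in the other 5. The same libraries were high for long transcripts in general. Over 634 genes of the longest 5% of transcripts, members left out, the median was 0.16, 0.10, 0.28 and 0.12 in those 4 Het libraries, 0.01 and -0.07 in M08 and M09, and 0.12 in WT F04. The members' transcripts are long, with a median of 7339 bases against 3485 over all tested adult genes, and 10 of the 34 are in that longest 5%. With GC content and length corrected, the members' median Het change was 0.06 in place of 0.09, still with 24 of 34 above 0. With the identifier prefix as a replicate block it was 0.11, with 27 of 34 above 0. WT F04 is the only adult library with its prefix, and leaving it out gave the same 0.11 and 27 of 34. All 4 cortical excitatory markers were listed, summing to 474 to 527 CPM in WT and 462 to 621 in Het, and their median deviation was 0.37, 0.25 and 0.26 in Het F02, F04 and F07, 0.03, -0.18 and 0.09 in Het M05, M08 and M09, and 0.11 in WT F04. Of the striatal and ventral telencephalic markers 7 of 8 were listed, summing to 326 to 386 CPM in WT and 280 to 349 in Het, with Ppp1r1b, a marker of striatal neurons, at 108 to 132 CPM in WT and 91.0 to 130 in Het. The part of these in the members' values was not tested beyond the GC content and length correction.

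**Figure D4:**
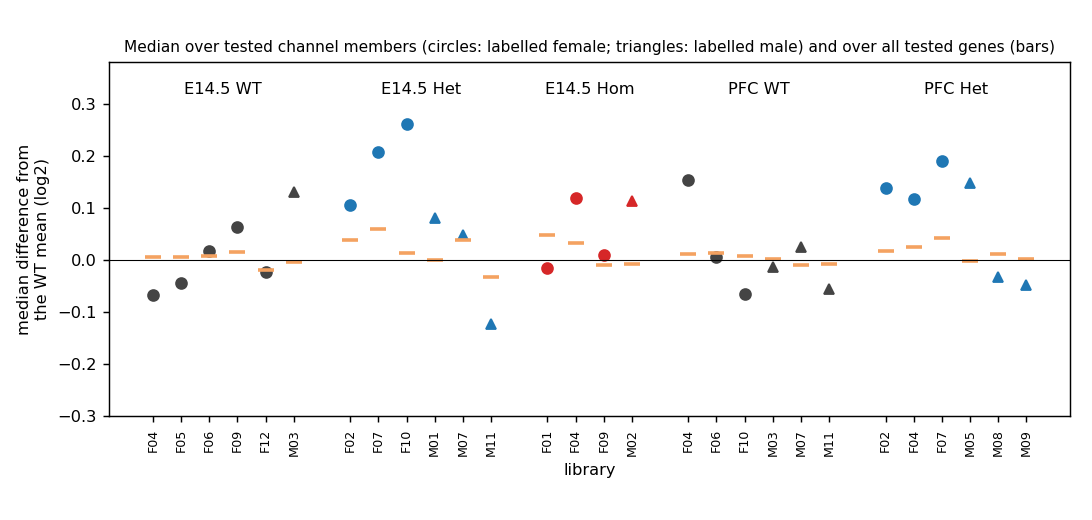
Median log2 difference from the WT mean over the tested members (symbols: 27 at E14.5, 34 in PFC) and over all tested genes (bars) in each library, named by labelled sex and title number. Adult Het F02, F04, F07 and M05 and WT F04 sit between 0.12 and 0.19, and Het M08 and M09 just below 0.

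Split by labelled sex, a split made after the values had been seen, the 3 female Het libraries against the 3 female WT libraries gave 5 called members of 34, beside 2.75% of all genes (limma). Scn2b (0.32, adjusted p = 0.0311), Scn8a (0.50, 0.0332), Scn3a (0.47, 0.0469) and Cacnb4 (0.32, 0.0450) rose and Cacnb1 (-0.43, 0.0342) fell, the second value being limma's adjusted p. Among males 0 members were called, beside 0.00777% of all genes, and male changes were 0.08, 0.06, 0.04, -0.05 and -0.17 in the same order. The difference between the sexes was called for 0 members (0.0% of all genes), with 5 at an unadjusted p under 0.05 (8.48% of all genes). Most female libraries share 1 identifier prefix, whereas male WT M03, WT M07, Het M05 and Het M08 carry another. Sex and prefix were therefore not separated in that difference. The female count was 0 without Het F02 (0.443% of all genes called) or without WT F10 (0.264%). It was 1 without Het F07 (1.48%) and 2 without WT F04 (1.72%) or WT F06 (3.09%). It was 3 after median centring of the libraries (2.57% of all genes) and 1, Scn2b, with GC content and length corrected (2.19%). Among the females WT F04 alone carries another identifier prefix, so the count of 2 without it (Scn2b and Scn8a) is also the count within 1 prefix.

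In E14.5 Hom cortex, 0 of the 27 tested members changed against WT, where 7.6% of all genes were called (limma, adjusted p under 0.05). At an unadjusted p under 0.05 there were 0 members as well, where 23.2% of all genes stood, and limma voom gave 0 at both levels. No member's groups stood apart (9.9% of all genes' did). The intervals were wide: 11 of 27 members lay within 1.5-fold (63.6% of all genes) and 25 within 2-fold. The median change was 0.09 against 0.02 over all genes, and 18 of 27 were above 0 (52.7% of all genes).

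Kcnab2 had the lowest p. It was at 3.95, 4.60 and 5.84 CPM (lowest, median, highest) in E14.5 WT and at 4.03, 3.79, 3.62 and 2.42 CPM in Hom F01, F04, F09 and M02. The first lay within the WT range and the other 3 below it, a change of -0.43 (SE 0.22, limma adjusted p = 0.237). Kcna1 was at 0.718 to 1.42 CPM in WT and at 1.20, 2.01, 1.62 and 1.62 CPM in the Hom libraries in the same order, a change of 0.46 (SE 0.25, limma adjusted p = 0.290). Of the calcium genes, Cacnb4 was at 2.92 to 4.39 CPM in WT and 5.06, 4.57, 4.29 and 3.37 CPM in Hom, a change of 0.33 (SE 0.19, limma adjusted p = 0.300). Kcnq3 had a change of 0.36 and Cacna1c of -0.31 (limma adjusted p = 0.338 and 0.461), and Cacnb3 of 0.15 with an interval of -0.10 to 0.39. The sodium genes had changes from -0.11 to 0.21. Scn2a had a change of 0.21 with an interval of -0.06 to 0.49, Scn3b of -0.11 with -0.40 to 0.18, and Scn2b of -0.09 with -0.35 to 0.18. For Kcnd2 the change of 0.52 came with an interval of -0.15 to 1.18, so the upper bound lay past 2-fold.

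In E14.5 Het cortex, 0 of 27 members changed against WT, where 5.83% of all genes were called (limma, adjusted p under 0.05). At an unadjusted p under 0.05 there were 3 (22.3% of all genes), all higher in Het (12.1% of all genes), and limma voom gave 4 at that level and called 0. No member's groups stood apart (2.57% of all genes' did). Intervals lay within 1.5-fold for 11 of 27 members (69.1% of all genes) and within 2-fold for all 27. The median change was 0.09 against 0.03 over all genes, with 16 of 27 above 0 (54.8% of all genes).

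Cacnb4 was at 2.92, 3.12 and 4.39 CPM in E14.5 WT and at 3.71, 4.25 and 6.71 CPM in Het, where only F02 and M01 exceeded the highest WT library. Its change was 0.45 (SE 0.18, limma adjusted p = 0.131). Cacnb3 was at 14.8, 16.8 and 19.2 CPM in WT and 16.2, 18.8 and 24.6 CPM in Het, a change of 0.27 (SE 0.11, limma adjusted p = 0.139). Without Het F10 and Het M11, whose labels Ddx3y went against, it rose by 0.37 (limma adjusted p = 0.0461). It was then the only called member of 27, where 8.74% of all genes were called. Kcnq3 was at 3.54, 5.83 and 7.15 CPM in WT and 3.88, 8.24 and 9.17 CPM in Het, with M11 alone among the lower WT values and the other 5 above all WT libraries. Its change was 0.45 (SE 0.21, limma adjusted p = 0.191). Kcnb2 (Kv2.2) had a change of 0.40, Cacna1e of 0.39 and Kcnab1 of -0.36 (limma adjusted p = 0.423, 0.264 and 0.429). Of the sodium genes, Scn1a had a change of 0.46 (SE 0.26, limma adjusted p = 0.300), Scn2a of 0.21 and Scn2b of 0.17. Beside these values, the summed cortical excitatory markers (4 of 4 listed) were 1312 to 1639 CPM in WT, 1451 to 1968 in Het and 1535 to 1817 in Hom, and the choroid plexus markers (3 of 4 listed) 1386 to 3963, 2985 to 5169 and 1579 to 2865. The mitochondrially encoded genes (8 of 8 listed) summed to 5526 to 8402 CPM in WT, 6128 to 10315 in Het and 6326 to 10170 in Hom. Of them 2 of 8 rose in Het, mt-Co3 by 0.53 and mt-Co2 by 0.48 (limma adjusted p = 0.00409 and 0.0443), and 1 of 8 in Hom, mt-Co3 by 0.35 (limma adjusted p = 0.0338). The excitatory markers that rose included Tbr1 and Neurod6 in Het (0.55 and 0.24) and Tbr1 in Hom (0.45). Of 4 newborn neuron markers Tubb3 fell in both (-0.23 and -0.26), while the median change over the 4 was 0.11 in Het and 0.06 in Hom. In Hom, 1 marker each also rose of the tested GABAergic interneuron (Dlx1, 0.89, 5 tested), striatal and ventral telencephalic (Ppp1r1b, 0.72, 5 tested) and radial glia lists (Sox2, 0.59, 6 tested), all by limma at an adjusted p under 0.05. The part of these genes in the members' values was not tested.

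Hom and Het cortex at E14.5 were compared in the same fit, and both share the WT libraries with the comparisons above. Of 27 members 0 changed, where 0.00805% of all genes were called (limma), and limma voom called 0. No member's groups stood apart (0.901% of all genes' did), 14 of 27 intervals lay within 1.5-fold (70.9% of all genes), and 13 of 27 changes were above 0 (46.9% of all genes). Kcnab2 was the only member at an unadjusted p under 0.05 (5.12% of all genes, 3.04% lower), at 2.42 to 4.03 CPM in Hom and 2.99 to 8.64 CPM in Het. Its change was -0.52 (SE 0.22, limma adjusted p = 0.957). Kcnd2 (0.66, SE 0.33), Scn1a (-0.53, SE 0.28) and Scn2b (-0.25, SE 0.13) followed, each with a limma adjusted p of 0.957. Further down, Kcnab1 had a change of 0.37, Cacna1g (T-type) of 0.32, Scn8a of 0.28, Cacnb3 of -0.13 and Cacna2d1 of 0.13, at limma adjusted p of 0.959 to 0.968.

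**Figure D5:**
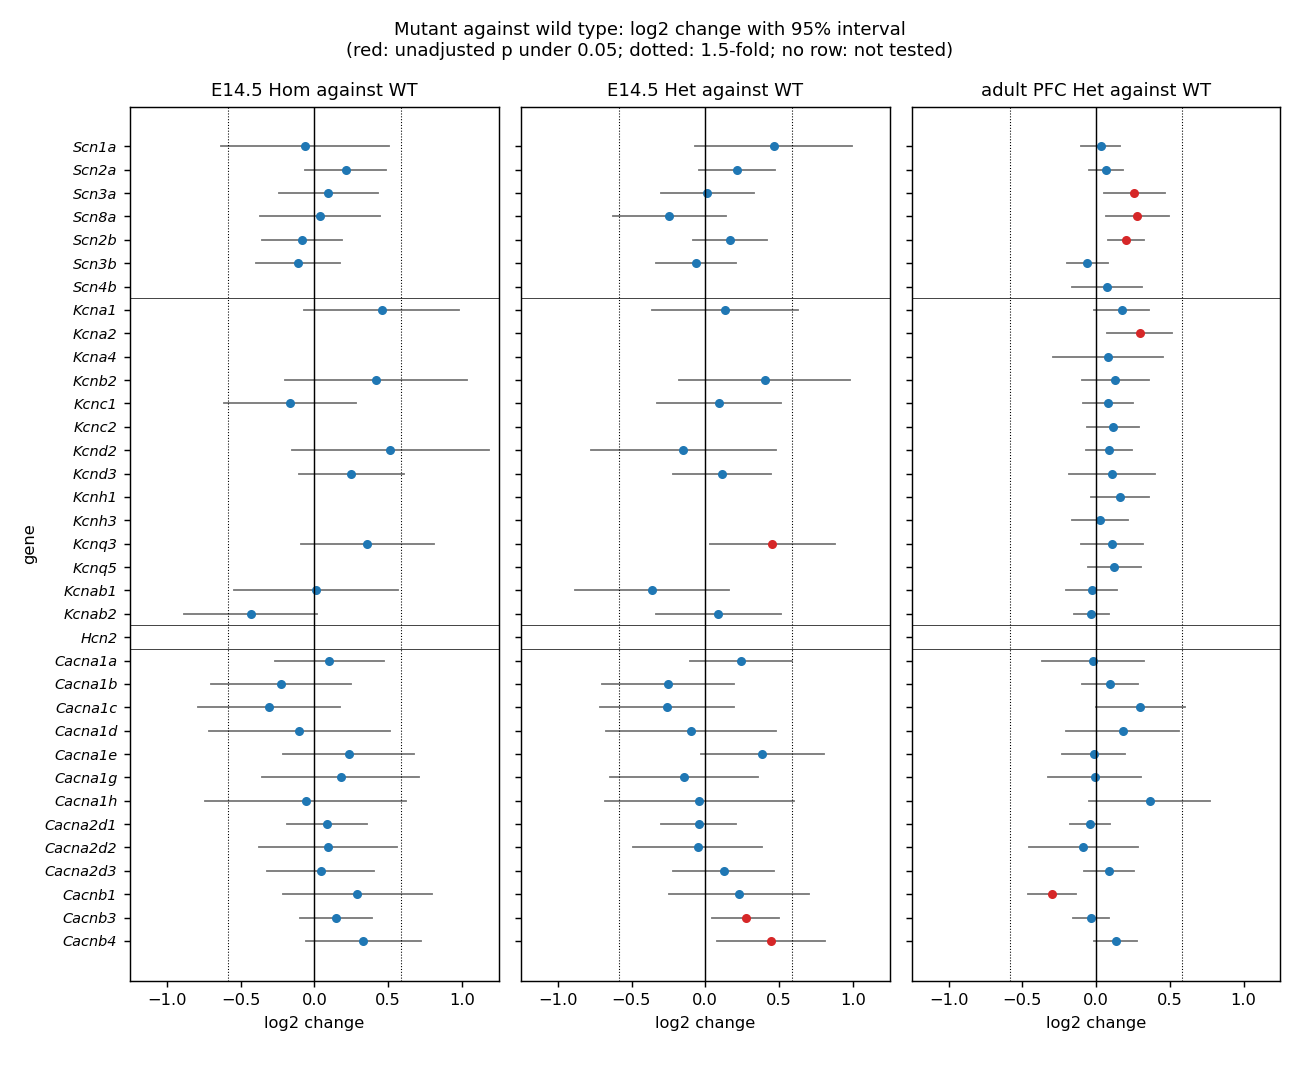
Log2 change of each tested member (points) with its 95% interval (lines) for E14.5 Hom against WT, E14.5 Het against WT and adult PFC Het against WT; dotted lines mark 1.5-fold and red points an unadjusted p under 0.05. Intervals are shorter in the adult, where 32 of 34 lie within 1.5-fold, than at E14.5, where 11 of 27 do in each contrast.

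The Het change in the adult PFC was set against that in the E14.5 cortex as a difference of within-table contrasts, which leaves the separate scaling out. Of 27 members tested in both, 0 differed, where 1.36% of 11581 genes were called (limma). At an unadjusted p under 0.05 there were 4 (16.7% of all genes), 2 higher (8.03%) and 2 lower (8.68%), and limma voom gave 5 at that level and called 0. Cacnb3 had a change of -0.04 in the adult and 0.27 in the embryo, a difference of -0.31 (SE 0.12, limma adjusted p = 0.169). Scn8a had 0.28 and -0.24, a difference of 0.52 (SE 0.21, limma adjusted p = 0.187). Cacnb1 had -0.30 and 0.23, a difference of -0.52 (SE 0.24, limma adjusted p = 0.245). This difference passed the threshold without E14.5 WT M03 (-0.85, limma adjusted p = 0.0334), where 1.23% of all genes were called. Cacna1c had 0.30 and -0.26, a difference of 0.56 (SE 0.26, limma adjusted p = 0.271). Only 10 of the 27 differences had an interval within 1.5-fold (55.5% of all genes), 13 of 27 were above 0 (47.8% of all genes), and the median difference was -0.01 in the members and over all genes.

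Outside the 35 genes, 93 genes of 7 lists were taken as the wider channel machinery: other sodium, calcium, Kv and HCN subunits, calcium-activated, leak and inward-rectifier potassium channels, channel modulators, and scaffolds of the initial segment and node. In Hom cortex 46 were tested, 0 were higher and 2 were lower than in WT (limma), beside 3.23% of all genes higher and 4.37% lower. These were Kcnip3, a calcium-binding modulator of Kv4 channels, and Cntn1, an adhesion protein of the node. Kcnip3 was at 68.9, 82.6 and 90.1 CPM in WT and at 59.8, 63.1, 66.6 and 72.2 CPM in Hom F01, F04, F09 and M02, overlapping in M02, a change of -0.30 (SE 0.08, limma adjusted p = 0.0302). Cntn1 was at 6.30 to 8.41 CPM in WT and 3.45 to 5.82 CPM in Hom, without overlap, a change of -0.64 (SE 0.19, limma adjusted p = 0.0349). These calls were lost under 10 and 9 of 29 alternative settings, with the direction kept. In the other comparisons 0 of 46 (E14.5 Het), 0 of 46 (Hom against Het), 0 of 76 (adult) and 0 of 42 (difference between ages) of these genes were called (limma), beside 5.83%, 0.00805%, 0.404% and 1.36% of all genes. At an unadjusted p under 0.05 there were 2, 5, 12 and 2 of them, beside 22.3%, 5.12%, 13.6% and 16.7% of all genes.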

How the data were processed

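Total RNA of 28 libraries was sequenced; per the labels' protocols, a SMARTer kit for low input was used. The submitters' processing notes name Trimmomatic, Bowtie2, STAR, HTSeq and mm10, and do not say that strand was used, so antisense overlaps such as Kcnd3os cannot be told apart. The authors deposited log2 CPM values, 1 table per tissue, with a prior count of 2 after upper-quartile scaling and RUVr, as read from the values and the tables' names. CPM was recovered from these log2 values by removing the common minimum; its steps gave whole counts for all values within 0.01, and the recovered totals are scaled, not sequencing depth. Genes with 1 CPM in at least 4 (E14.5) or 6 (PFC) libraries were tested with limma 3.58.1 in R 4.3.3 (trend, robust) on log2(CPM + 0.5), with genotype and labelled sex, over all libraries of a table; fold changes are on that scale and understate those of low genes. A change is called at a Benjamini-Hochberg adjusted p under 0.05 over all tested genes. Levels between genes are divided by GENCODE vM21 exon length. Replicate numbers are those of the sample titles and pair no samples. Each p-value sets a change against the spread between these libraries, with information on that spread shared over genes.

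The members, gene lists and tests were chosen with earlier results of these data known. Named genes are up to 4 per class with the lowest p in the adult comparison, up to 3 per class in each E14.5 comparison, called genes of other lists, and Myt1l; levels are named by rank. The split by sex and its alternatives were added after seeing the data. Promoters come from RefSeq and figures were drawn with matplotlib 3.10.9.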

Additional observations from a re-analysis of the deposited data

Results flagged for a closer look

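Of 169 groups of 4 to 6 libraries of a member, 9 held a library far from its group by Dixon's criterion, and chance gives about 1 in 20. At E14.5 these were Cacna1b in Hom F01 (2.53 CPM, the other 3 at 3.89 to 3.92), Kcnc1 in Hom F09 (1.76 CPM, others 2.42 to 2.46), Scn3a in WT F05 (6.70 CPM, others 8.24 to 9.04), Kcnc2 in WT F06 (0.609 CPM, others 0.0681 to 0.205), Kcna2 in Het F07 (2.44 CPM, others 0.0678 to 0.777) and Kcnq3 in Het M11 (3.88 CPM, others 7.37 to 9.17). Kcnq3 is the one of these whose Het value is described with an unadjusted p under 0.05, and M11 is a library whose sex label Ddx3y went against. In the adult PFC they were Cacna1b in WT F04 (25.2 CPM, others 18.3 to 20.3), Cacna1d in Het M09 (2.64 CPM, others 6.48 to 8.34) and Cacna2d3 in WT M03 (28.2 CPM, others 31.4 to 32.6). WT F04 is also the WT library with the highest median over the members.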

How the results depend on the processing

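The count of called members was 0 under all 29 alternatives for E14.5 Hom against WT and for Hom against Het. It became 1 under 1 alternative in each of the other comparisons: adult Het against WT without Het M05 (Cacnb1, beside 0.956% of all genes called), E14.5 Het against WT without both Het F10 and Het M11 (Cacnb3, beside 8.74%), and the difference between ages without E14.5 WT M03 (Cacnb1, beside 1.23%). Leaving out single libraries thus gave 0 to 1. With the samples' identifier prefix as a replicate block the count was 0 in every comparison. It was also 0 with the RUVr directions as covariates in the fits of each table, with limma voom, other pseudocounts, filters, centring, and GC content and length correction. For the adult female contrast the count of 5 became 1 with GC content and length correction (2.19% of all genes) and 3 with median centring (2.57%). Leaving out 1 library in turn gave 0 to 5, beside 0.264% to 3.73% of all genes. Outside the contrasts by sex, members at an unadjusted p under 0.05 kept their direction under every alternative run. Smaller changes did not all do so: adult Het Scn2a ranged from -0.01 to 0.09, Scn1a from -0.04 to 0.06 and Cacnb3 from -0.06 to 0.05, and Hom Scn2b from -0.16 to 0.03. The members at an unadjusted p under 0.05 were picked from the same libraries that the alternatives reuse. Their kept direction is therefore no separate support. The deposited values had 1 (PFC) or 2 (E14.5) directions removed by RUVr, which only the fit with them as covariates counts in the residual degrees of freedom. At E14.5, 6 listed members were too low to test.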
